A study of Mus musculus with 6 samples.

Results

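The genes described here are 3 ligands of the interleukin-6 family (Il6, Lif and Osm) and the 4 receptor chains that bind them (Il6ra, Il6st, Osmr and Lifr), followed in mouse liver. They were chosen by the gene description that the array files give each target, whatever its level, which gave 7 genes and 14 of the 44170 target rows on the array. A target row is a group of probes with its own description and gene span, and a gene can have several. The files call the Osmr rows "oncostatin receptor", and these were taken as Osmr. Rows of a gene are numbered here by brightness, row 1 being the brightest by its mean over all 6 arrays.

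The liver samples came from 6 wild-type male C57 BL/6 mice aged 9-10 weeks, 1 mouse per array. In the LPS/GalN group, 3 mice received 0.01 µg of LPS together with 20 mg of GalN, and in the LPS group 3 mice received the same dose of LPS alone, both for 2.5 h. LPS is lipopolysaccharide, a component of the bacterial cell wall, and GalN is D-galactosamine, an amino sugar that is taken up by hepatocytes and depletes their uridine nucleotides, which limits RNA synthesis. Each mouse was treated separately, per the labels. All 6 mice therefore received LPS. Untreated mice and mice given GalN alone were not analysed here, so the values compare LPS/GalN with LPS and do not give a response to LPS. Where a gene is said below to have fallen, its level was lower in LPS/GalN than in LPS. A decrease and a smaller rise after LPS cannot be told apart here.

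Cytokines of this family signal through gp130, the protein encoded by Il6st. IL-6 first binds its own receptor chain (Il6ra), LIF binds Lifr, and oncostatin M binds Osmr, and each of these complexes includes gp130, whose tail activates JAK kinases and the transcription factor STAT3. In liver this pathway is known for driving the acute phase response of hepatocytes, and its feedback inhibitor is Socs3.

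Intensity was measured as RMA intensity (robust multi-array average, a background-corrected and normalized summary of the probes of a row) and is given on the log2 scale. Each array carried a row of random probes, called RANDOM, whose log2 intensity of 4.97 to 5.12 serves as the background level. Between 17.5 and 22% of all rows lay at or below it. Differences are LPS/GalN minus LPS with their standard error (SE), from limma's moderated test across all 44170 rows, and a row was called changed at a Benjamini-Hochberg adjusted p under 0.05. Of all rows, 1382 were lower in LPS/GalN (3.13%) and 289 were higher (0.654%), 3.78% in either direction, and the median change of all rows was 0.05. Intensity also depends on each row's probes, so levels are compared between groups within a row and not between rows.

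Hepatocyte markers were above the RANDOM row for 10 of 10 genes on every array, as the tissue label says. Some arrays stood apart in markers of other tissues. The summed intensity of 9 T cell and thymus markers was 12950 and 8121 on LPS/GalN replicates 2 and 3, against 475.5 on LPS/GalN replicate 1 and 484.3 to 724.4 in LPS. For 10 intestine and pancreas markers the sum was 1878 to 2063 in LPS/GalN, against 17060, 17380 and 2188 on LPS replicates 1, 2 and 3. The high sums came from intestinal genes. On the log2 scale, LPS replicates 1, 2 and 3 read 13.04, 13.0 and 6.99 for Vil1 and 11.68, 11.57 and 8.31 for Lgals4. Fabp2 read 12.29, 12.47 and 10.56. Pancreas genes read only 4.52 (Pnlip) to 7.27 (Cela2a) on LPS replicates 1 and 2. Kupffer cell markers summed to 18060 to 21060 in LPS/GalN and 9534 to 13120 in LPS, with 0 of 10 genes called. Sinusoidal endothelial markers summed to 13150 to 15460 in LPS/GalN and 5635 to 9198 in LPS. Of these, 3 of 9 genes were higher (Egfl7, Pecam1 and Tie1), against 0.654% of all rows. Stellate cell markers summed to 4399 to 4985 in LPS/GalN and 2913 to 3997 in LPS, with 1 of 9 genes higher (Ngfr). Cholangiocyte markers summed to 1532 to 1974 in LPS/GalN and 3338 to 5275 in LPS, with 1 of 5 genes lower (Sox9). Epcam and Krt19 were high only on LPS replicates 1 and 2, the arrays with high intestinal markers. LPS replicates 1, 2 and 3 read 11.24, 10.95 and 6.59 for Epcam and 9.44, 9.15 and 5.19 for Krt19. Krt7 and Spp1 had changes of 0.30 and 0.31 in the other direction and were not called. The single marker genes in this paragraph are named after their values were seen. In bulk tissue, fewer cells of a type and less RNA per cell cannot be told apart.

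Sequence upstream of 3 genes, Lifr, Il6 and Socs3, is shown, and no result rests on it. Lifr has a pair of listed transcript starts and target rows that moved differently, though the starts listed for the rows do not sort their changes. Listed regulators of Il6 were lower in LPS/GalN, and Socs3 had the lowest p of the feedback genes. The windows run from 250 bases before to 50 bases after a listed start, 5′ to 3′ on the gene's strand, from RefSeq annotation of GRCm38.p6, and 7 of 8 genes looked up had at least 1 window (none is listed for Osm). Capitals mark matches to the NF-kB consensus or to the STAT motif TTCNNNGAA, both strands searched.
Lifr, first start, chr15:7129322-7129621, plus strand: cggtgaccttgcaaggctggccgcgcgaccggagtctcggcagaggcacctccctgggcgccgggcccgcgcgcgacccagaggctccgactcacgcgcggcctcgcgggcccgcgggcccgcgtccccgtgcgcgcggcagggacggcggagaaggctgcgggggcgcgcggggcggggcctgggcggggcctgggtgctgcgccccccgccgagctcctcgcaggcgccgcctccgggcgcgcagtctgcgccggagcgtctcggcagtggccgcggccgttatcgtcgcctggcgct
Lifr, second start, chr15:7140292-7140591, plus strand: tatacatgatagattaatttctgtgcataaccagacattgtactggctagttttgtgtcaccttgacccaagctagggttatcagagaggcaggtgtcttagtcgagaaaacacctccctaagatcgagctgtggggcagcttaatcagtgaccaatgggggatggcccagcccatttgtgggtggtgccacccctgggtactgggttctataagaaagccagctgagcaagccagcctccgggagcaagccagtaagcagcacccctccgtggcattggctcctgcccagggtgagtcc
Il6, chr5:30012864-30013163, plus strand: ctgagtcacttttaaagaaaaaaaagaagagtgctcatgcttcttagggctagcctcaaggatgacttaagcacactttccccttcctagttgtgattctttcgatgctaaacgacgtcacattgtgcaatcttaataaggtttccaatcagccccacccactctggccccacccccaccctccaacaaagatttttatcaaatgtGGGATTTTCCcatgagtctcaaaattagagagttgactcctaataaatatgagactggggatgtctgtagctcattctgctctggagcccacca
Socs3, chr11:117969317-117969616, minus strand: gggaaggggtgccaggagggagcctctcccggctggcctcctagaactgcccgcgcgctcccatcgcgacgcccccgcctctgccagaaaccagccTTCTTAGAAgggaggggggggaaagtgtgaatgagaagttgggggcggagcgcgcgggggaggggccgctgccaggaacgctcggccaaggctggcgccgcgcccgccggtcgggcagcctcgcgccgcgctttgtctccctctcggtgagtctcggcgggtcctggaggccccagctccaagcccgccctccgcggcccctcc

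The windows of the first and second Lifr starts lie 10.97 kb apart and differ in base composition, with 81.3% and 53.3% G and C, and neither holds a match to either motif. The Il6 window holds the NF-kB match GGGATTTTCC, with its first base at -44 relative to the start. The Socs3 window holds the STAT match TTCTTAGAA at -154. Over 32851 windows of the same length, 8.5% held an NF-kB match and 8.3% held a STAT match. The motif matches do not overlap each other, and the only other match among the windows of these genes was GGGACGCCCC at -178 of Lif. These matches are letters in a window and were not tested for binding.

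Across the family, 1 of 14 rows was called (7.14%, against 3.78% of all rows and 7.25% of the brighter rows, those above the median row): the dimmest Lifr row, which was higher in LPS/GalN (higher rows made up 0.654% of all rows and 1.18% of the brighter rows). No row was called lower by limma, and 2 rows, of Il6 and Il6st, were lower at an unadjusted p under 0.05. With the Lifr row, 3 of 14 rows (21.4%) had such a p, against 17.5% of all rows (9.13% lower and 8.39% higher). Of the brightest row of each gene, 0 of 7 passed, with 1 (Il6st) at an unadjusted p under 0.05, and their median change was 0.02. The groups did not overlap in 4 of 14 rows (28.6%, against 24.0% of all rows), near the background. In 3 of the 14 (21.4%, against 11.1% of all rows) LPS/GalN was the lower group. There were 9 rows above RANDOM on all 6 arrays. The other 5 rows, those of Il6, the only one of Osm and the dimmer one of Osmr, were not.

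**Figure D1:**
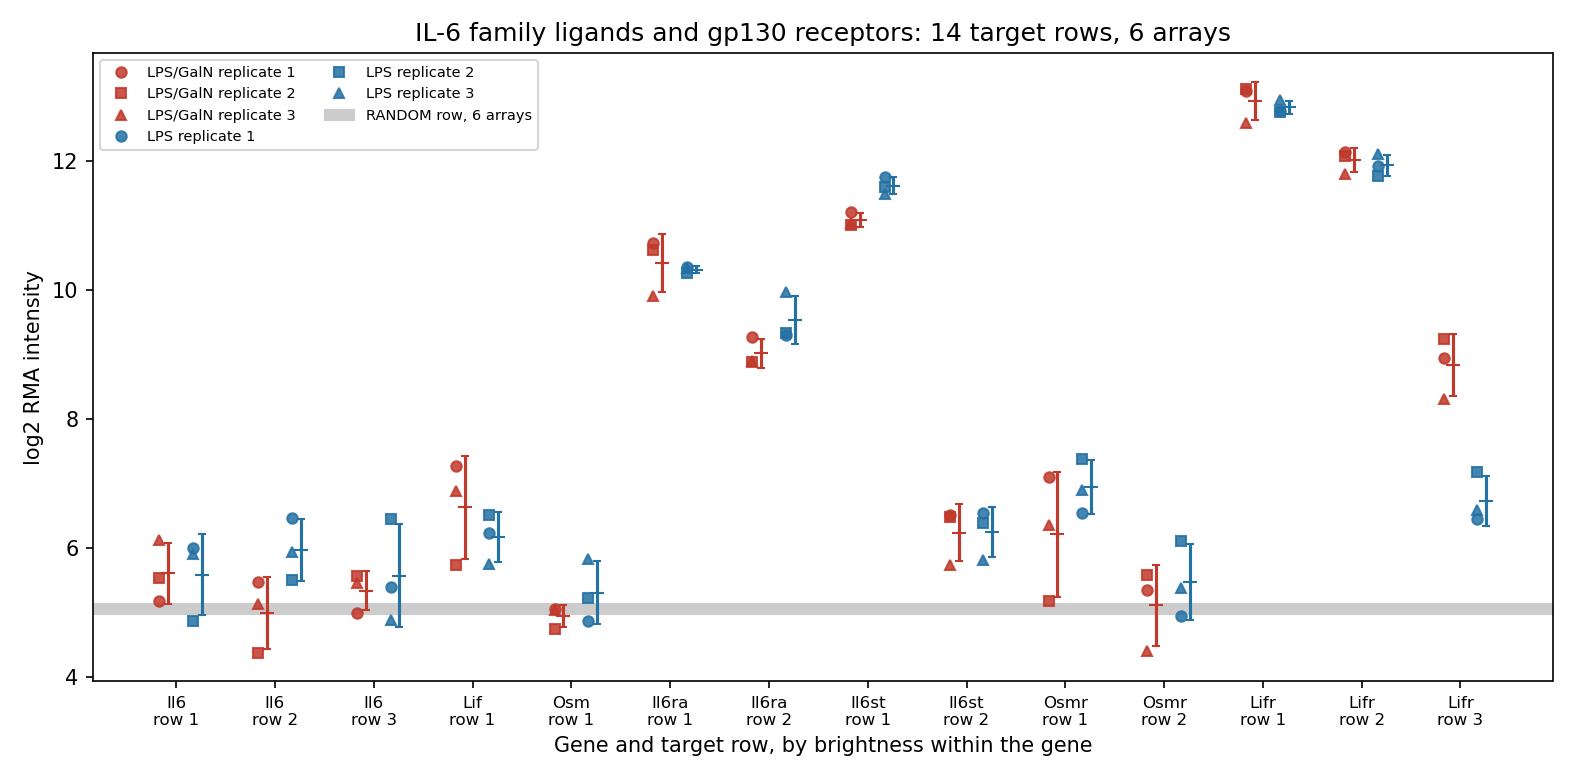
Log2 RMA intensity of each of the 14 target rows (x axis, gene and row number) on the 6 arrays, with red for LPS/GalN and blue for LPS, the mean and SD beside the points, and the grey band for the RANDOM row (4.97 to 5.12). The Il6 and Osm rows lie in or near the band, the brightest Il6ra, Il6st and Lifr rows lie far above it, and Lifr row 3 has its 3 LPS/GalN points above its 3 LPS points.

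Among the ligands, Il6 encodes the cytokine that drives the hepatic acute phase response. Its brightest row (chr5:30339700-30346521 in mm9, the span of the gene that the files list) read 5.18, 5.52 and 6.11 in LPS/GalN, against 5.99, 4.86 and 5.90 in LPS. The groups overlapped, the change was 0.02 ± 0.38, and the 95% interval ran from -0.85 to 0.89. Row 2 read 5.47, 4.37 and 5.13 in LPS/GalN, against 6.46, 5.50 and 5.93 in LPS. Here all LPS/GalN arrays lay below all LPS arrays, by a narrow margin between LPS/GalN replicate 1 and LPS replicate 2. The change of -0.97 ± 0.36 (95% interval -1.80 to -0.14) had an unadjusted p of 0.0272 and did not pass after adjustment over all rows (limma, adjusted p = 0.212). Row 3 read 4.99, 5.56 and 5.45 in LPS/GalN, against 5.38, 6.45 and 4.87 in LPS, and the groups overlapped (-0.24 ± 0.40, limma, adjusted p = 0.816). All 3 rows had at least 1 array at or below RANDOM, so at this signal a difference of Il6 was not detectable beyond these intervals.

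Lif encodes leukemia inhibitory factor, which binds Lifr together with gp130. It read 7.27, 5.73 and 6.88 in LPS/GalN, against 6.23, 6.51 and 5.75 in LPS. LPS/GalN replicates 1 and 3 were the highest of the 6 arrays and LPS/GalN replicate 2 the lowest, so the groups overlapped, with a change of 0.46 ± 0.41 (95% interval -0.49 to 1.41, limma, adjusted p = 0.626). Osm encodes oncostatin M, made mainly by myeloid cells, which in mouse acts chiefly through Osmr. It read 5.05, 4.74 and 5.03 in LPS/GalN, against 4.86, 5.22 and 5.83 in LPS. Only 1 LPS/GalN array and 2 LPS arrays were above RANDOM, and the change was -0.36 ± 0.29 (95% interval -1.04 to 0.31, limma, adjusted p = 0.579). Osm (chr11:4136835-4140012) and Lif (chr11:4166594-4169335) are neighbours, with starts 29.8 kb apart in mm9, and neither was called.

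Il6ra encodes the IL-6 binding chain, which hepatocytes carry on their surface. Its brightest row (chr3:89673245-89717084) read 10.73, 10.63 and 9.90 in LPS/GalN, against 10.35, 10.26 and 10.34 in LPS. LPS arrays lay within 0.1 of each other, whereas LPS/GalN replicate 3 was low and replicates 1 and 2 were high, and the change was 0.10 ± 0.27 (95% interval -0.52 to 0.73, limma, adjusted p = 0.888). Row 2 read 9.28, 8.88 and 8.91 in LPS/GalN, against 9.30, 9.34 and 9.97 in LPS. Its groups did not overlap, though LPS/GalN replicate 1 and LPS replicate 1 nearly met, and the change of -0.52 ± 0.27 was not called (limma, adjusted p = 0.372). The rows of Il6ra thus had changes of opposite sign, both within an interval that includes 0.

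Il6st encodes gp130, the signalling chain shared by the family. Its brightest row (chr13:113254316-113297049) read 11.21, 11.003 and 11.05 in LPS/GalN, against 11.76, 11.59 and 11.50 in LPS. Every LPS/GalN array was below every LPS array, and the spread within groups was small (SD 0.11 in LPS/GalN and 0.13 in LPS, n = 3 each). The level in LPS/GalN was 1.45-fold below that in LPS, a log2 change of -0.53 ± 0.21 (95% interval -1.02 to -0.04). Its unadjusted p of 0.036 did not pass the adjustment over all rows (limma, adjusted p = 0.245). With a variance prior that follows intensity and is robust to outlying rows, the same change passed (limma, adjusted p = 0.0378), so this call depends on how the spread was estimated. Row 2 lists a shorter span that ends earlier (chr13:113254316-113273821) and read 6.50, 6.47 and 5.73 in LPS/GalN, against 6.54, 6.39 and 5.81 in LPS. In that row the groups overlapped almost completely, with a change of -0.01 ± 0.31 (limma, adjusted p = 0.988).

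Osmr encodes the oncostatin M receptor chain. Row 1 (chr15:6793968-6824283) read 7.10, 5.18 and 6.35 in LPS/GalN, against 6.54, 7.38 and 6.89 in LPS. LPS/GalN replicate 2 was far below the other arrays and close to RANDOM, the groups overlapped, and the change was -0.73 ± 0.47 (95% interval -1.82 to 0.36, limma, adjusted p = 0.485). Row 2 read 5.35, 5.58 and 4.396 in LPS/GalN, against 4.94, 6.10 and 5.37 in LPS, close to RANDOM on most arrays and with overlapping groups (-0.36 ± 0.40, limma, adjusted p = 0.705). The starts of the Osmr and Lifr spans lie 296.6 kb apart on chromosome 15.

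Lifr encodes the LIF receptor chain, and in mouse it is known to give both a membrane-bound receptor and, by alternative splicing, a soluble form. Its bright rows and its dim row did not behave alike. Row 1 (chr15:7090548-7135346) read 13.09, 13.13 and 12.60 in LPS/GalN, against 12.78, 12.77 and 12.96 in LPS. Row 2 (chr15:7079558-7135733) read 12.15, 12.09 and 11.80 in LPS/GalN, against 11.93, 11.78 and 12.11 in LPS. In both, LPS/GalN replicates 1 and 2 were above LPS replicates 1 and 2, whereas LPS/GalN replicate 3 was below LPS replicate 3, and the groups overlapped. The changes were 0.10 ± 0.24 in row 1 (95% interval -0.45 to 0.65) and 0.08 ± 0.22 in row 2 (95% interval -0.44 to 0.59).

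Row 3 of Lifr (chr15:7079558-7141218) read 8.94, 9.25 and 8.31 in LPS/GalN, against 6.44, 7.17 and 6.58 in LPS. All 6 arrays were above RANDOM, and the lowest LPS/GalN array was more than 1 log2 unit above the highest LPS array. The mean was 8.83 ± 0.48 in LPS/GalN and 6.73 ± 0.39 in LPS (SD, n = 3 each), 4.29-fold higher in LPS/GalN, with a log2 change of 2.10 ± 0.32 (95% interval 1.36 to 2.84, limma, adjusted p = 0.00959). Leaving out 1 array at a time gave changes of 1.90 to 2.36, and without LPS replicate 1 the adjusted p was 0.0503. The change was 2.21 without LPS/GalN replicates 2 and 3, the arrays with high thymus markers, and 2.25 without LPS replicates 1 and 2, the arrays with high intestinal markers. Neither passed with the single array then left in that group (limma, adjusted p = 0.0953 and 0.179). Summed endothelial, Kupffer and stellate cell markers were also higher in LPS/GalN. The cholangiocyte sum was lower, though not in all of its genes, as given above. The part of any of these markers in the row's change was not tested.

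One more row overlaps Lifr and lay outside the rule. The files describe it as an alternatively spliced differentiation-stimulating factor receptor, an older name of the LIF receptor, and it was picked after its values were seen. It read 7.23, 8.13 and 7.90 in LPS/GalN, against 6.73, 6.44 and 6.11 in LPS. The groups did not overlap, and LPS/GalN was 2.51-fold above LPS, a log2 change of 1.33 ± 0.30 (95% interval 0.63 to 2.03) that narrowly missed the threshold (limma, adjusted p = 0.0556). It passed with trend and robust fitting (limma, adjusted p = 0.0353), with a pseudocount of 50 (0.0376), in the deposited value table (0.0235) and without LPS/GalN replicate 1 (0.022), and had an adjusted p of up to 0.17 without another single array. This row and row 3 list the farther end of the locus (7141218), whereas rows 1 and 2 end at 7135346 and 7135733. The listed starts do not sort the rows in this way, since row 2 and row 3 list the same start (7079558) and the other pair start about 10.98 kb later. Where in the span the probes lie is not given in the files used here, so no exon or untranslated region can be assigned to a row.

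**Figure D2:**
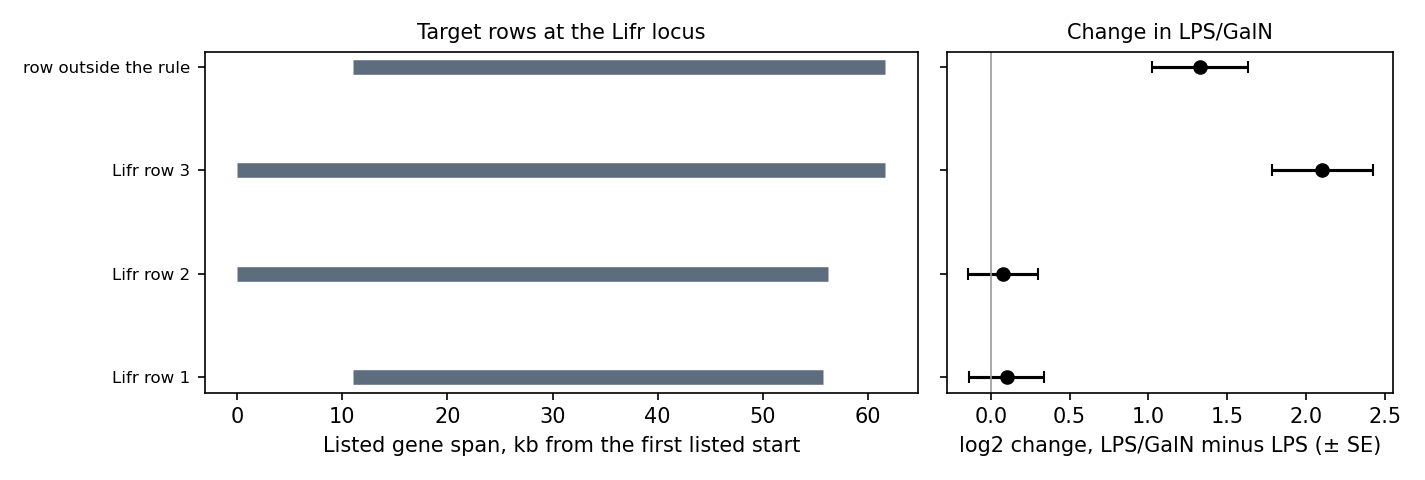
Left, the gene span that the files list for the 4 target rows at the Lifr locus, in kb from the first listed start. Right, the log2 change of each row, LPS/GalN minus LPS, with its SE (n = 3 each): rows 1 and 2 stand at 0.10 and 0.08, and the pair of rows that list the farther end, row 3 and the row outside the rule, at 2.10 and 1.33.

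Set against each other within arrays, the same values gave row 3 minus row 1 of -4.15, -3.88 and -4.29 in LPS/GalN, against -6.34, -5.60 and -6.38 in LPS. Row 3 lay nearer to row 1 on every LPS/GalN array. As row 3 was singled out because it was called, this restates the changes above and is given with no test.

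By likeness over the 6 arrays, the gene nearest to the brightest Il6st row was Nr5a2, a nuclear receptor of liver, with a Pearson r of 0.988, and the next was Nfkb1, an NF-kB subunit, with 0.985, of 1095 genes with a symbol and a mean above the median row. Both fell in LPS/GalN, Nr5a2 by 2.16 (limma, adjusted p = 0.01) and Nfkb1 by 2.01 on the log2 scale (limma, adjusted p = 0.00436), several times the difference of Il6st. The call of Nr5a2 was lost without LPS/GalN replicate 3 and without LPS replicate 1 (limma, adjusted p = 0.0503 and 0.0505). The gene nearest to the brightest Lifr row was Msi1 (r = 0.986), followed by Ovca2 (0.968), and nearest to Il6ra was Sash1 (0.990), followed by Msi1 (0.959). Lif was nearest to Tyk2 (0.941) and Sp1 (0.939), and Osmr to Csf3r (0.970) and Olfr284 (0.968). These are the highest of 1095 values over 6 arrays that fall into both treatment groups, and they describe these arrays only. Neighbours within 200 kb of a member were sought only among the 2638 genes with a symbol, on 4003 of the 44170 rows. None was found for Il6, Osmr or Lifr, and most rows at these loci could not be considered. Adar, an RNA-editing enzyme gene whose span starts 138.5 kb from that of Il6ra, fell by 1.79 ± 0.28 (limma, adjusted p = 0.0107, and 0.0518 without LPS replicate 1). Il31ra, a receptor of the same family whose span starts 65.3 kb from that of Il6st, had a change of -0.65 ± 0.21 (limma, adjusted p = 0.165).

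The other genes of the pathway were read from 6 lists, each gene by its brightest row. The lists were chosen with earlier results of these data known, so their shares are descriptive and test nothing. Among 12 other ligands and receptors of the gp130 family, 1 was lower (8.33%, near the 6.08% of brighter rows) and 0 were higher by limma, with 2 in each direction at an unadjusted p under 0.05 and a median change of -0.13. The gene that passed was Il27, which encodes a subunit of interleukin-27, a cytokine of myeloid cells. It read 5.60, 5.40 and 6.14 in LPS/GalN, against 7.95, 7.90 and 7.32 in LPS, and fell by 2.01 ± 0.29 (limma, adjusted p = 0.00772). Ebi3, which encodes the other subunit of interleukin-27, had a change of -0.28 ± 0.34 and overlapping groups. Il11, Ctf1, Cntf and Clcf1, further ligands of the family, had changes of -0.40, -0.33, 0.002 and 0.53, and none was called (limma, adjusted p between 0.501 and 0.999).

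Of 13 JAK-STAT transducers, 3 were lower (23.1%, against 3.13% of all rows and 6.08% of the brighter rows) and 0 were higher by limma, with 5 lower and 1 higher at an unadjusted p under 0.05. The median was -0.40. Stat3, the main transcription factor downstream of gp130, read 13.76, 13.67 and 13.77 in LPS/GalN, against 15.11, 15.003 and 15.19 in LPS. The arrays of a group were nearly identical, and Stat3 fell by 1.37 ± 0.21 (limma, adjusted p = 0.00901). Stat3 was thus 2.58-fold lower in this row, whose LPS arrays read near the top of the scale (the highest rows stand at 15.83 to 15.92). Whether its change was compressed there was not tested. The other Stat3 row, which read 13.80 to 13.96 in LPS, fell by 1.46 ± 0.21 (2.76-fold, limma, adjusted p = 0.00772). Stat5a, which relays growth hormone and other cytokine signals, averaged 9.07 ± 0.29 in LPS/GalN and 10.87 ± 0.25 in LPS (SD, n = 3 each) and fell by 1.79 ± 0.25 (limma, adjusted p = 0.00699). That is its brightest row. Its dimmer rows had smaller changes of -1.04, -0.81 and -0.83, and none of them was called (limma, adjusted p = 0.267, 0.114 and 0.165).

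Jak2, a kinase bound to the tails of cytokine receptors, read 7.15, 6.91 and 8.25 in LPS/GalN, against 9.45, 9.37 and 9.19 in LPS. LPS/GalN replicate 3 stood above the other LPS/GalN arrays, and the fall of 1.90 ± 0.36 (limma, adjusted p = 0.0256) passed in only 1 of the 6 fits that left out an array, the one without LPS/GalN replicate 3. The adjusted p in those fits was 0.00715 to 0.104. Jak1, the kinase that gp130 is known to need most, read 10.79, 11.002 and 11.11 in LPS/GalN, against 11.51, 11.43 and 11.50 in LPS. Its groups did not overlap, and its change of -0.51 ± 0.21 (limma, adjusted p = 0.261) was close in size to that of Il6st and likewise not called.

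**Figure D3:**
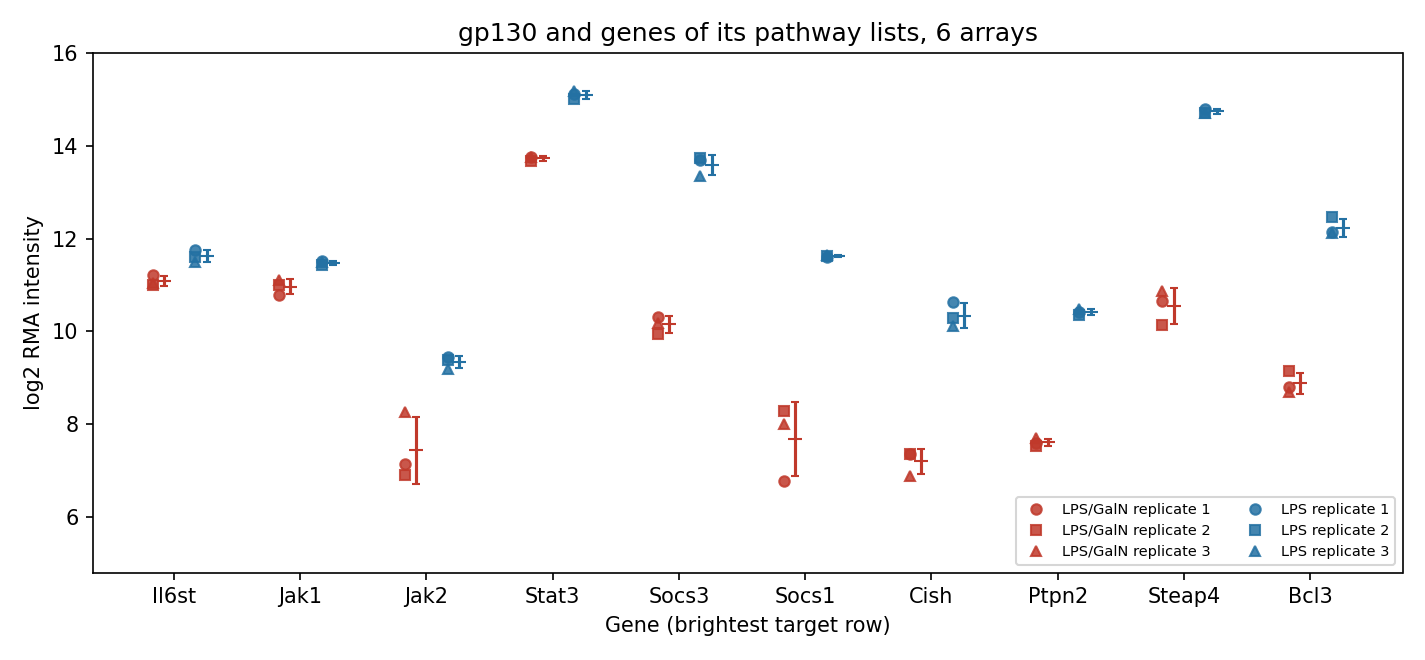
Log2 RMA intensity (y axis) of the brightest row of Il6st and of 9 genes of the pathway lists (x axis) on the 6 arrays, red for LPS/GalN and blue for LPS, with the mean and SD beside the points. Il6st and Jak1 differ by about 0.5 between groups without passing the test, and the other 8 genes are lower in LPS/GalN, with changes of -1.37 (Stat3) to -4.19 (Steap4).

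Of 9 feedback and negative regulators of gp130 signalling, 5 were lower (55.6%, against 3.13% of all rows and 6.08% of the brighter rows) and 0 were higher by limma. At an unadjusted p under 0.05, 6 were lower and 2 higher, and the median was -1.15. Socs3, which binds gp130 and blocks its JAK kinases, read 10.31, 9.95 and 10.18 in LPS/GalN, against 13.69, 13.74 and 13.34 in LPS. Every LPS/GalN array was more than 3 log2 units below every LPS array, and Socs3 fell by 3.44 ± 0.23 (limma, adjusted p = 0.000321). Socs1, an inhibitor of JAK kinases best known from interferon signalling, read 6.78, 8.27 and 7.999 in LPS/GalN, against 11.59, 11.62 and 11.64 in LPS. It varied most between LPS/GalN mice and fell by 3.93 ± 0.38 (limma, adjusted p = 0.00141). Cish, a STAT5-induced inhibitor of the same family, averaged 7.20 ± 0.28 in LPS/GalN and 10.34 ± 0.26 in LPS, and Ptpn2, a phosphatase that acts on JAK and STAT proteins, averaged 7.61 ± 0.08 in LPS/GalN and 10.41 ± 0.07 in LPS (SD, n = 3 each). Cish fell by 3.14 ± 0.25 and Ptpn2 fell by 2.81 ± 0.21 on the log2 scale.

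Regulators of Il6 itself were lower nearly throughout. Of 8 measured genes of 10 listed, 7 were lower (87.5%, against 3.13% of all rows and 6.08% of the brighter rows) and 0 were higher by limma. All 8 were lower at an unadjusted p under 0.05, and the median was -2.39. Arid5a, whose protein binds and stabilises Il6 mRNA, read 7.08, 7.84 and 7.97 in LPS/GalN, against 11.78, 11.90 and 11.92 in LPS. Its groups were far apart, and it fell by 4.24 ± 0.28 (limma, adjusted p = 0.000321). Atf3, a repressor that restrains Il6 transcription in macrophages, fell by 3.93 ± 0.29. Rela, the NF-kB subunit p65, fell by 2.66 ± 0.24, and Nfkbiz, a nuclear co-activator that Il6 transcription needs, fell by 2.57 ± 0.24. The list thus held activators and repressors of Il6 that were both lower in LPS/GalN than in LPS, while the 3 Il6 rows were at or near background in both groups.

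Of 4 measured genes of receptor shedding and processing (5 listed), 1 was lower (25.0%, a single gene, against 3.13% of all rows and 6.08% of the brighter rows) and 0 were higher by limma, with 2 lower and 0 higher at an unadjusted p under 0.05 and a median of -0.77. Rhbdf2, which encodes a partner needed for maturation of the sheddase ADAM17, averaged 8.47 ± 0.24 in LPS/GalN and 10.86 ± 0.14 in LPS (SD, n = 3 each) and fell by 2.38 ± 0.23 (limma, adjusted p = 0.00139). Adam17 itself, named after its values were seen, had a change of -0.51 ± 0.27 and was not called.

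Of 26 measured liver genes linked to STAT3 (29 listed), 16 were lower (61.5%, against 3.13% of all rows and 6.08% of the brighter rows) and 0 were higher by limma. At an unadjusted p under 0.05, 18 were lower and 0 higher, and the median was -1.64. Steap4, a metalloreductase gene that IL-6 induces in liver, read 10.65, 10.13 and 10.88 in LPS/GalN, against 14.80, 14.71 and 14.71 in LPS, and fell by 4.19 ± 0.26 (limma, adjusted p = 0.000268). Il1r1, the receptor of interleukin-1, averaged 8.69 ± 0.44 in LPS/GalN and 12.35 ± 0.08 in LPS, and Bcl3, a nuclear protein that binds NF-kB, averaged 8.88 ± 0.23 in LPS/GalN and 12.23 ± 0.19 in LPS (SD, n = 3 each). Il1r1 fell by 3.67 ± 0.27 and Bcl3 fell by 3.36 ± 0.23 on the log2 scale. The 10 genes that were not called included the fibrinogen chains Fga, Fgb and Fgg, with changes of 0.07, -0.29 and -0.22. Their rows read near the top of the scale. Orm2 and Saa4, also not called, had changes of -1.68 and -0.997 and groups that did not overlap (limma, adjusted p = 0.0907 and 0.0927). Row 1 of Cp had a change of -0.34. Its rows 2 and 4 were called lower (-3.16 and -2.99, limma, adjusted p = 0.0141 and 0.00296), and row 3 (-0.815) was not. These genes were named after their values were seen. Of the 26 genes, 24 had negative and 2 had positive changes. Socs3 is in this list and in the feedback list. Hepatocyte markers, read the same way, had a median of -0.13 with 0 of 10 called and 0 at an unadjusted p under 0.05, and summed to 365300 to 384000 in LPS/GalN and 381400 to 417800 in LPS. In 7 of these 10 genes both group means exceeded 15, close to the highest values of the arrays, so they cannot show that hepatocyte transcripts held their level. Neutrophil markers summed to 1169 to 2108 in LPS/GalN and 2858 to 3904 in LPS. Of these, 2 of 9 genes were lower (22.2%, against 3.13% of all rows), S100a8 and S100a9, named after their values were seen. The other 7 were not called. The part of neutrophil markers in these list values was not tested.

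The list counts were repeated without the arrays on which markers of other tissues were high. Without LPS/GalN replicates 2 and 3, 4 feedback genes, 4 regulators of Il6 and 8 STAT3-linked genes were lower, and 0 of the other ligands and receptors, of the transducers and of the shedding genes. Without LPS replicates 1 and 2, none was called, and no row of the array was. Each of these fits keeps a single array in one group, and called 350 and 0 rows lower in all, against 1382 with all 6 arrays. Socs3 kept its call in the first of them and not in the second, with log2 changes of -3.28 (limma, adjusted p = 0.0243) and -3.20 (limma, adjusted p = 0.0597).

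**Figure D4:**
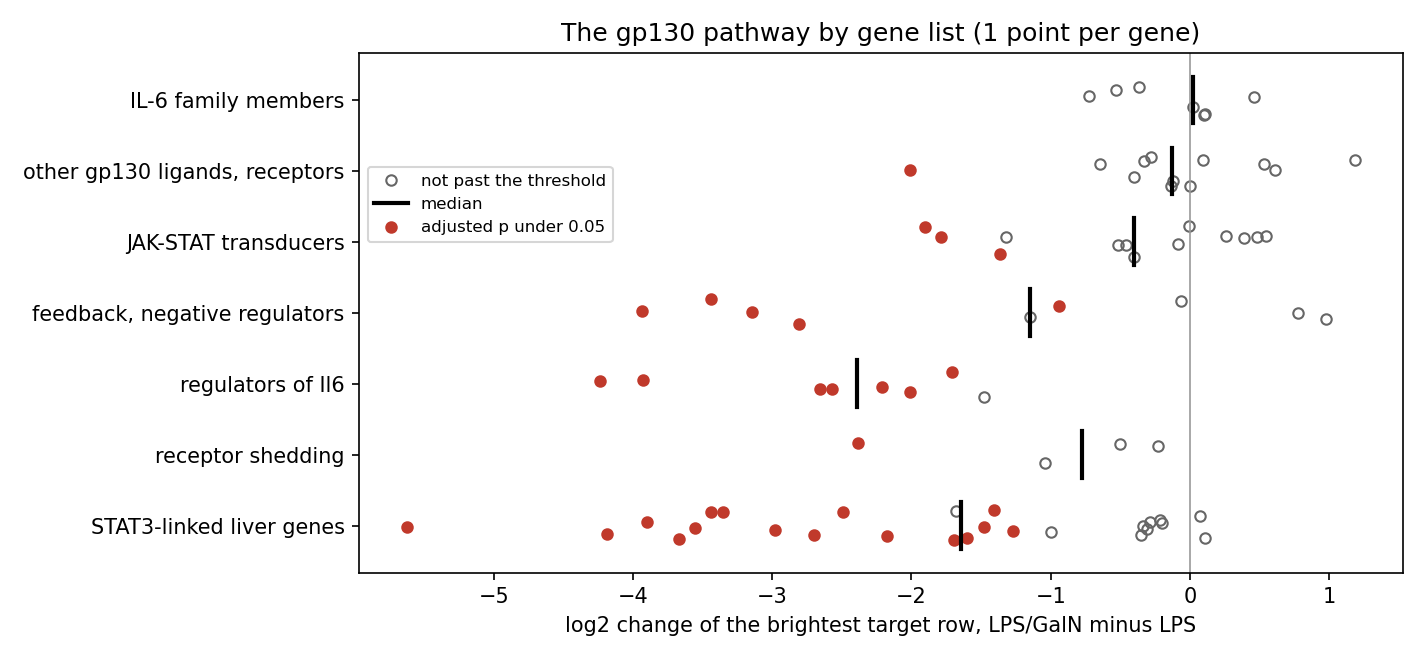
Log2 change (x axis, LPS/GalN minus LPS) of the brightest row of each gene, 1 point per gene, for the 7 members and 6 pathway lists (y axis). Filled red points passed an adjusted p under 0.05 and black bars are medians, which run from 0.02 for the members to -2.39 for the regulators of Il6, where 7 of 8 points are filled.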

How the data were processed

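Total RNA of 6 mouse livers was labelled with Cy3 and hybridised to NimbleGen arrays, per the labels' protocols, which give 3 probe pairs per gene. The authors deposited RMA intensity per target row and array on a linear scale, per the headers of the files and the submitters' notes on processing; its settings are not given in these sources. RMA equalises arrays, so a global change of RNA per cell would not be seen. A deposited table of 18076 rows, none under an intensity of 50 on any array, served as an alternative.

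Intensities were converted to log2 and fitted with limma 3.58.1 in R 4.3.3 (lmFit and eBayes, two-sided, 4.09 prior degrees of freedom), with group as the only term, over all 44170 rows without a filter, with Benjamini-Hochberg adjustment of the p-values. The deposited intensity of the RANDOM row was the background. Array number, 3 per group, limits the precision. The fit was tested on simulated data.

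Symbols were read from descriptions, RefSeq accessions and a hand-made name table, giving 2638 symbols on 4003 rows. Coordinates are mm9 as deposited. Il6 regulators Cebpb and Cebpd, Adam10, Hp and Egr1 were not matched.

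The members and lists were chosen with earlier results of these data known. The text names the 7 members, 9 fixed genes, up to 4 called genes with the smallest p per list, the 2 genes most alike to each member above background, and neighbours within 200 kb. The 16 alternatives are given below. Replicate numbers did not pair the arrays: same-numbered deviations from the group means had r of 0.002, -0.004 and 0.02 across rows.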

Additional observations from a re-analysis of the deposited data

How the results depend on the processing

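Of 16 alternatives, 8 changed the processing or the model and 8 left out arrays. Single-array exclusions gave 831 to 1358 lower rows and 53 to 804 higher rows, against 1382 and 289 with all arrays: 831 and 53 without LPS replicate 1, 886 and 58 without LPS replicate 2, and 80, 134 and 804 higher rows without LPS/GalN replicates 2, 3 and 1. Higher rows numbered 1093 with trend and robust fitting, 697 with a pseudocount of 50 and 758 in the value table. With the replicate number as a block, 144 rows were higher; the numbers do not pair the arrays. Without LPS/GalN replicates 2 and 3 together, 350 rows were lower and 26 higher, and without LPS replicates 1 and 2 together both counts were 0, each with 1 array left in a group, assumed to vary like the other group.

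Member rows past the threshold numbered 0 with 1 row per gene, which keeps only the brightest row, 2 with trend and robust fitting, where Il6st (-0.532) passed, 0 to 1 without single arrays and 0 in both joint exclusions. The dimmest Lifr row ranged over 1.895 to 2.363 without single arrays and was 2.211 and 2.252 in the joint exclusions. The value table holds no intensity under 50 and so lacks Il27, the only called gene among other gp130 ligands and receptors. Lower genes in the lists were therefore 0 for other gp130 ligands and receptors in the value table, whatever the fit. In the exclusion of LPS/GalN replicates 2 and 3 they were 0 for those, for JAK-STAT and for shedding, 4 for regulators of Il6 and 8 for STAT3-linked genes. In the exclusion of LPS replicates 1 and 2 they were 0 in every list.

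Signs of uncalled values turned. The brightest Il6 row was -0.010 with quantile normalization, -0.016 with median centring, -0.339 to 0.236 without single arrays and -0.406 and -0.294 in the joint exclusions. Row 3 of Il6 gave -0.584 to 0.204 and 0.461, Il6ra -0.053 to 0.363, row 2 of Il6st -0.234 to 0.239, 0.253 and 0.424, Osmr 0.163, Lifr row 1 -0.017, and Lifr row 2 -0.003 to 0.183 and -0.092. Cntf gave -0.023 (quantile), -0.035 (centring), -0.029 (pseudocount), -0.328 to 0.442, -0.172 and -0.878. Ctf1 gave -0.601 to 0.187, Clcf1 -0.051 and Ebi3 -0.641 to 0.025, and Fga -0.020 to 0.213. Calls were also compared over the 37 single genes and rows named beside the main counts. They were lost in 0 of 244 comparisons that changed the processing or model and 8 of 222 without a single array. With the replicate block 1 of 37 was lost (Jak2). A call was counted as lost only where the change kept its sign. These totals include genes and rows that were not called and so had no call to lose. The dimmest Lifr row is not among the 37, and its call was lost without LPS replicate 1. The joint exclusions, with 1 array left in a group, are given above. The causes were not tested. The median change of all rows was 0.015 to 0.105 over the settings, the highest in the value table, and 0.053 as reported. The signal of Il6 and Osm over background limits any statement on them.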
